A study of Mus musculus with 7 samples.

Results

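The proton-pumping cells described here are 404 epithelial cells of 2 mice, 197 from a young mouse and 207 from an old mouse, among 18277 cells of these 2 libraries and 40342 cells of all 23 mice in the series with 500 or more detected genes and no more than 10% mitochondrial (mt-) UMIs. They were chosen by the measured UMI counts themselves: at least 4 UMIs on at least 2 of the 5 genes Foxi1, Atp6v1b1, Atp6v0d2, Atp6v1g3 and Slc4a9, and no UMI of the immune gene Ptprc. The levels of these 5 genes are therefore a description of the choice and carry no test.

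The series is a single-cell RNA-seq survey of the mouse seminal vesicle, made with 3′ UMI counting on the 10x Genomics platform. Both mice used here were wild-type FVB/NJ males on the control diet, 3 months old (young) and 18 months old (old), with 1 mouse and 1 library per age. After the limits on genes and mt- UMIs the young library held 9164 cells with 24827069 UMIs, and the old library 9113 cells with 36580722 UMIs. Both are labelled seminal vesicle, but the defining markers of its secretory cells were nearly absent: Svs5, an abundant secretory gene of this gland, stood at 3.54 and 3.03 CPM (UMIs scaled to a common total, 2000 CPM being 0.2% of all UMIs) in the young and the old library, against 34458 to 340782 in the other 21 mice. Genes of the epididymal epithelium were abundant instead. Gpx5, a secreted glutathione peroxidase of the epididymis, stood at 30483 and 44175 CPM, against at most 0.545 CPM in any other mouse, and Lcn8, an epididymal lipocalin, at 2812 and 12039 CPM. The 404 cells are therefore cells of 2 libraries that go against their tissue label, and no statement about the seminal vesicle can rest on them. The prostate markers Tgm4, Pbsn, Sbp and Spink1 had no UMI in any of the 404 cells.

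Clear cells of the epididymis, like intercalated cells of the kidney, move protons across their membrane with a vacuolar-type ATPase (V-ATPase), and ionocytes of the airway express it too. This pump joins a cytosolic V1 sector that splits ATP to a membrane V0 sector that carries the protons, and several of its subunits come in a widely expressed form and a form restricted to proton-secreting cells. Foxi1 is the transcription factor known to switch on the restricted forms in such cells. In the epididymis, clear cells keep the lumen acidic, which holds sperm quiescent while they are stored, and they take up material from the lumen by endocytosis. Principal cells, the main secretory epithelium, and basal cells are their neighbours.

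Of the rule genes, Atp6v1g3 (chr1:138273738-138289462, GRCm38), the restricted form of the V1 G subunit, led in both mice, with 2161 CPM in the young and 1663 CPM in the old mouse, and was detected in 97% and 98.1% of the cells. Foxi1 (chr11:34204338-34208089) stood at 498 and 349 CPM, with a UMI in 81.7% and 75.8% of the cells. Atp6v0d2, the restricted V0 d subunit, stood at 292 and 218 CPM, and Atp6v1b1, the restricted V1 B subunit, at 49.1 CPM in both. Slc4a9, an anion exchanger of kidney type B intercalated cells, had no UMI in either mouse, so all cells were chosen on the remaining 4 genes. None of the 207 young or 130 old immune-class cells, in which these genes should be absent, had a UMI of Foxi1 or Atp6v1g3, at a median of 1298 and 1430 UMIs per cell against 2665 and 3461 in the proton-pumping cells. Other classes were not free of them: Atp6v1g3 stood at 3.85 and 6.27 CPM in stroma and 7.87 and 3.6 CPM in muscle, and Foxi1 at 0 and 3.14 CPM in stroma.

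Because Foxi1 is a forkhead factor, the promoters of the genes described here were searched for the forkhead core, TGTTTAC or its reverse complement GTAAACA, in the 250 bases before each start (RefSeq, GRCm38.p6). Promoters were found for 3 of the 5 rule genes and for 15 of the 20 named genes below. Among these and the listed genes that were higher than in principal-like cells, the core was found before Atp6v1b1 and before P2ry14, a receptor for UDP-sugars described further on. The 67 bases around each match, 5′ to 3′ along the gene with the core in capitals, are:
Atp6v1b1, chr6:83742889-83742955, plus strand: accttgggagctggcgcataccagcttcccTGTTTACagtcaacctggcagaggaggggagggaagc
P2ry14, chr3:59131290-59131356, minus strand: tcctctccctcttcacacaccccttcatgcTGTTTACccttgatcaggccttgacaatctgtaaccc
The cores begin 98 and 208 bases before the RefSeq start. For P2ry14 this start lies inside the wider GENCODE span of the gene (chr3:59113855-59153618), not at its outer end. Of all 27025 genes with a promoter, 3.54% held the core, against 2.73% of the 9550 genes tested against principal-like cells and 2.61% of the 1262 called higher there, so the share among the higher genes was no greater than among the genes tested. A match describes letters and not a bound site.

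Every other passing cell took a class from markers: epithelial, stromal, muscle, endothelial or immune, by the most marker UMIs, with at least 3 UMIs on 2 genes. Epithelial cells were split on basal keratins and Trp63 into basal-like cells (2210 young and 1733 old) and the rest, called principal-like (1808 and 3261 cells). The principal-like cells were not free of these genes (Krt14 at 112 and 76 CPM). The principal-like class was not chosen on secretory genes, and the median cell of it spent 13.1% and 13.9% of its UMIs on 24 epididymal principal-cell genes. The share of proton-pumping cells was 2.15% of passing cells in the young mouse (95% exact binomial interval 1.86 to 2.47) and 2.27% in the old (1.98 to 2.6). These intervals cover counting error only and overlap, and 1 mouse per age allows no test. In all 30 barcodes occurred in both libraries; 1 of the 404 cells carried such a barcode, and no barcode was a proton-pumping cell in both.

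The cells were rich in mitochondrial transcripts, close to the limit that defined them. Their median mt- share was 7.29% in the young and 6.88% in the old mouse, against 3.34% and 3.2% in principal-like and 3.97% and 4.37% in basal-like cells, and 82.2% and 70% of them lay above 5%. No other class had more than 51.8% of its cells above 5%. When the limit was raised to 20%, a setting chosen after seeing the data, the cells numbered 400 in the young and 420 in the old mouse, 4.09% and 4.28% of passing cells, and with a limit of 5% they numbered 35 and 62. The number of cells per mouse therefore depends on this limit, and cells above it are not described here.

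Some of these cells also held much principal-cell RNA. Over 2% of the UMIs were on the 24 principal-cell genes in 29 of the 197 young cells and in 75 of the 207 old cells. This limit was set after seeing the data. The nearest cells below it lay at 1.57% and 1.41%, and the nearest above it at 2.11% and 2.61%. The cells above it had medians of 9215 and 9381 UMIs, the cells at or below it 2517 and 2592. In the cells at or below it the median principal-cell share was 0.0613% (young) and 0.128% (old), under the 0.233% and 0.336% of immune-class cells. No doublets were removed here, and what part doublets have in the high cells was not tested. A number of results below are also given without them.

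**Figure D1:**
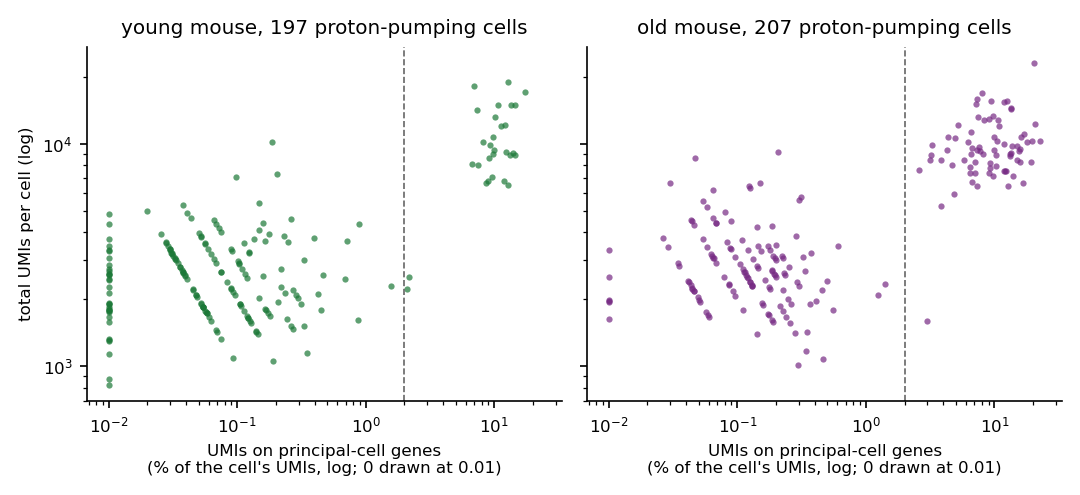
Each point is 1 proton-pumping cell: the share of its UMIs on 24 principal-cell genes (x axis, log scale, percent) against its total UMIs (y axis, log scale), for the young (left, 197 cells) and the old mouse (right, 207 cells). The dashed line marks 2%; 29 young and 75 old cells lie to its right, with medians of 9215 and 9381 UMIs against 2517 and 2592 to its left.

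Markers of the remaining classes were far below the levels of their own classes, but not absent. The 5 immune markers summed to 6.64 and 1.76 CPM, and the 4 endothelial markers to 45.1 and 21.9 CPM. The 4 basal markers summed to 478 and 321 CPM against 6165 and 5287 CPM in basal-like cells, with Krt14 the most abundant. The 5 stromal markers, led by Dcn, summed to 570 and 629 CPM against 25770 and 27251 in stromal cells, and the 4 muscle markers, led by Acta2, to 491 and 746 CPM. The stromal and muscle markers moved with the comparisons below. Against principal-like cells 4 of 5 stromal markers were called higher and 1 lower, and 4 of 4 muscle markers higher, beside 13.5% higher over all genes tested. Against basal-like cells 5 of 5 and 4 of 4 were called higher, beside 17.5% over all genes tested. The 4 basal markers were also called higher than in principal-like cells. Principal-like cells are the epithelial cells left after basal-like cells were split off on these genes. They still held some (Krt14 at 112 and 76 CPM), but the split fixes the direction, so the basal calls carry no test. The other classes were assigned on these markers too, and how far this sets the stromal and muscle calls was not tested. Dcn stood at 494 and 364 CPM against 18.6 and 68.4 CPM for Col1a1, another stromal marker, whereas in stroma they stood at 9597 and 7126 and at 5728 and 7192 CPM. None of these marker genes was called higher in the 105 young and 95 old cells with at most 1 UMI of other classes' markers, a limit that itself removes such UMIs, and their part in the other results was not tested. At least 3 UMIs on 2 such genes were seen for stroma in 11 young and 29 old cells and for muscle in 12 and 27. The 6 genes of seminal vesicle secretion gave 8 and 4 UMIs in all. Cells of this kind were thus epithelial (Krt8 2857 and 2203 CPM, Krt18 2252 and 1885 CPM) and many also held RNA of other classes.

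Around the threshold, genes outside the rule followed the rule UMIs. Clcn5, the endosomal chloride-proton exchanger, stood at 11.1 CPM in the 8673 young cells with no rule UMI, at 41.9, 403 and 793 CPM in the cells with 1, 2 and 3 rule UMIs (201, 39 and 22 cells), and at 1393 CPM in the 43 cells just inside, with 4 to 6. In the old mouse the same values were 10.8, 21.8, 63.5 and 299 CPM outside and 820 CPM just inside. The 29 young and 36 old cells left out because their 4 or more UMIs were on 1 gene stood at 1978 and 980 CPM, and 3 young and 1 old cells were left out for a Ptprc UMI. These groups also differed in depth and Gpx5. Young cells with 1 and 2 rule UMIs had medians of 6781 and 5720 UMIs and Gpx5 at 70987 and 64941 CPM, against 2145 UMIs and 27183 CPM just inside. In the old mouse they had 7564 and 8129 UMIs and 67873 and 66259 CPM, against 7256 UMIs and 50130 CPM. Summed levels cannot tell a gradual edge from a mix of unlike cells. Some cells left out by the rule held Clcn5 at levels like those of the cells inside.

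The comparison with principal-like cells asked what sets the proton-pumping cells apart from the main epithelium of the same libraries. UMIs were summed per mouse and class, and 12265 genes were fitted in edgeR (quasi-likelihood) with a term for the mouse. The low-count filter kept a gene counted in either class. Genes nearly absent from principal-like cells were thus tested only through the proton-pumping sums and could not be called lower. The same holds for the comparison with basal-like cells below. At an adjusted p (Benjamini-Hochberg) under 0.05, 1652 genes, 13.5% of those tested, were higher and 1383 genes, 11.3%, were lower in the proton-pumping cells. Values below are log2 ratios after TMM scaling, which sets the median gene near 0 (-0.03); with library size alone the median gene moved to 0.295 and the counts were 3057 higher and 713 lower. With 2 mice the fit has 1 residual degree of freedom beside spread borrowed across genes (8.14 prior degrees of freedom). The p-values rest mostly on that borrowed spread and cover these 2 mice only. UMI counting at the 3′ end does not scale with gene length, so levels can be set side by side between genes as counts of captured molecules.

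The largest rises were led by Smbd1 and by Mcf2, a guanine nucleotide exchange factor. Smbd1 stood at 146 and 122 CPM in the proton-pumping cells of the young and old mouse against 2.36 and 0.616 CPM in principal-like cells, a log2 ratio of 6.41 ± 0.30 (SE, adjusted p = 1.4e-06). Iapp, the peptide hormone amylin of pancreatic beta cells (chr6:142298423-142303961), was the most abundant gene of this group. It stood at 8435 CPM (95% Poisson interval 8228 to 8645, counting error only) and 6889 CPM against 95.9 and 82.9 CPM, a log2 ratio of 6.09 ± 0.23 (adjusted p = 4.6e-07). Stap1, a signalling adaptor also known from airway ionocytes (chr5:86071746-86106125), stood at 1221 and 1092 CPM against 24.2 and 12.3 CPM (5.74 ± 0.25, adjusted p = 8e-07). In each of these the proton-pumping sums of both mice lay far above both principal-like sums.

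The named genes are the 20 largest rises among 334 genes with at least 100 CPM in the proton-pumping cells of both mice. They included Clcn5 (chrX:7153810-7319358; 2169 and 1620 CPM against 52.2 and 26.9, log2 ratio 5.32 ± 0.22, adjusted p = 6.8e-07). Serpinb6b (805 and 577 CPM) and Serpinb9 (716 and 575 CPM), protease inhibitors of the serpin family, were among them. Further members were Scg5, a chaperone of prohormone convertases (182 and 146 CPM), Edn3, a ligand of endothelin receptors (234 and 116 CPM), and Il13ra2, a decoy receptor for interleukin-13 (243 and 179 CPM). Others were Bik, a pro-apoptotic protein, Gpm6b, Ncald, a calcium sensor, Clca3a2, Plagl1, Ltbp2, Ccdc80, Pdlim3 and Npnt. All 20 were also higher than in basal-like cells and kept their direction and their call under every alternative fit that was run.

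Some of the 20 were as high in other classes. Pdlim3 stood at 138 and 143 CPM in the proton-pumping cells and at 137 and 103 CPM in muscle. Ccdc80 stood at 143 and 124 CPM against 169 and 151 CPM in stroma, and Npnt at 108 and 104 CPM against 174 and 231 CPM in muscle. These genes separate the proton-pumping cells from the other epithelium, not from all classes, and their call held when the cells with over 1 UMI of other classes' markers were left out.

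The V-ATPase genes did not move as one. Of the 13 listed V1 genes, 10 were tested outside the rule, and 4 were higher, 2 lower and 4 did not pass. Of the 12 listed V0 and accessory genes, 11 were tested outside the rule, and 3 were higher, 2 lower and 6 did not pass, beside 13.5% higher and 11.3% lower over all genes tested. The median log2 ratios were 0.14 and 0.40, beside -0.03 over all genes tested. The rises were in the catalytic V1 subunit Atp6v1a (559 and 406 CPM against 114 and 92.1, log2 ratio 1.89 ± 0.14, adjusted p = 2.1e-05), Atp6v1e1 (751 and 527 CPM against 205 and 178, 1.40 ± 0.15), Atp6v1c2 (77 and 37.7 CPM against 7.09 and 5.5, 2.78 ± 0.24), Atp6v0a4 (121 and 76.3 CPM against 3.59 and 2.07, 4.81 ± 0.20) and, more weakly, Atp6v1h (0.67), Atp6v0b (0.68) and Atp6ap2 (0.59). These last 3 lost their call without the mouse block (adjusted p = 0.055, 0.054 and 0.054), and Atp6v1h and Atp6ap2 also with DESeq2 (0.12 each). Atp6v1c2 and Atp6v0a4 are, like the 3 rule genes of the pump, the restricted forms of their subunits.

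The widely expressed forms of the same subunits were not raised. Atp6v1g1 was lower than in principal-like cells (680 and 949 CPM against 1153 and 1304, log2 ratio -0.94 ± 0.18, adjusted p = 0.0045), under every alternative. Atp6v1b2 (-0.60), Atp6v0a1 (-0.75) and Atp6v0d1 (-0.48) were also lower, but each lost its call with DESeq2 (adjusted p = 0.19, 0.14 and 0.36) and with library size alone (0.18, 0.082 and 0.45). For Atp6v0d1 the young mouse showed no fall (95.6 against 95.1 CPM, and 74.6 against 92 CPM in the old mouse). Atp6v1c1 and Atp6v0a2 did not pass (-0.30 and -0.02). Against basal-like cells 9 of 9 tested V1 genes and 6 of 10 tested V0 genes were higher, beside 17.5% over all genes tested (7 and 4 with DESeq2, 6 and 4 without the mouse block), among them Atp6v1g1 (0.62 ± 0.14) and Atp6v1b2 (0.48 ± 0.17). In the cells with at most 2% principal-cell UMIs 6 V1 and 6 V0 genes were higher than in basal-like cells, and Atp6v1g1 (0.05), Atp6v1b2 (0.06) and Atp6v0a1 (-0.85) did not pass (adjusted p = 0.79, 0.88 and 0.15). With library size alone, 6 V1 and 6 V0 genes were higher than in principal-like cells and 1 and 0 lower. Atp6v0c, the proton-carrying ring subunit, was counted at only 5.31 and 1.76 CPM, and its reads may be shared with near-identical copies, so its level is uncertain.

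The share of each subunit's UMIs that came from the restricted form shows the same data within the cell. In the V1 G subunit Atp6v1g3 gave 76% of the UMIs in the young and 63.6% in the old proton-pumping cells, against 2.71% and 1.05% in principal-like cells. In the V0 d subunit Atp6v0d2 gave 75.3% and 74.6%, against 14.5% and 22.6%. In the V1 B subunit Atp6v1b1 gave 42.5% and 38.9%, against 0.406% and 0.262%, although all 3 of these genes were used in the choice. For the forms the rule did not use, Atp6v0a4 gave 54.8% (95% exact binomial interval 46.9 to 62.5) and 55.1% (47 to 63) of the V0 a UMIs, against 3.72% and 2.49%, and Atp6v1c2 gave 50.4% (41 to 59.9) and 36.4% (27.8 to 45.8) of the V1 C UMIs, against 9.52% and 7.27%. In the cells with at most 2% principal-cell UMIs the shares were larger, at 71.4% (62.1 to 79.6) and 77.1% (65.6 to 86.3) for Atp6v0a4, 68.8% (57.4 to 78.7) and 63% (47.5 to 76.8) for Atp6v1c2, and 56.7% and 67.7% for Atp6v1b1. The other listed forms of each subunit gave the remainder, which for V0 a includes Tcirg1 (8 and 6 UMIs), more abundant in immune-class cells, and for V1 G includes Atp6v1g2 (2 and 4 UMIs).

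**Figure D2:**
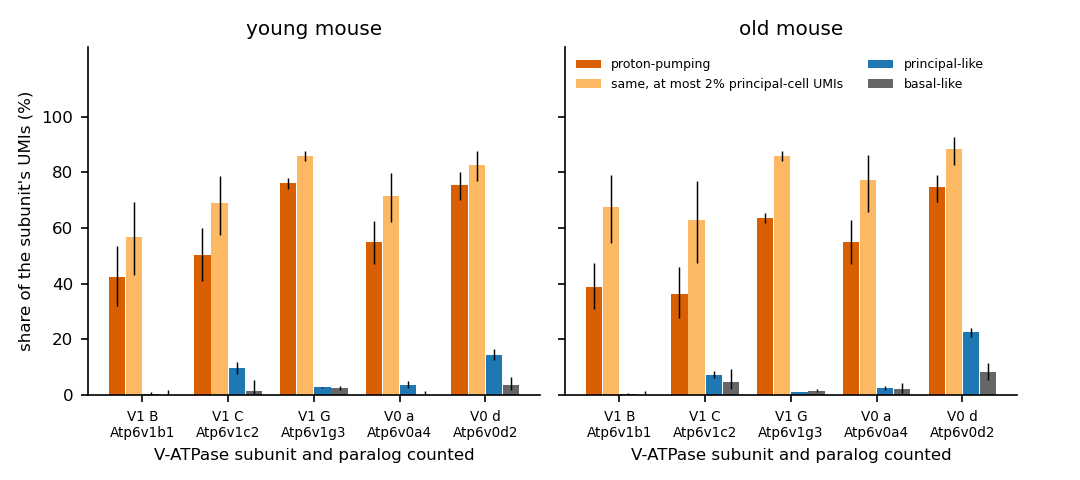
Share of a V-ATPase subunit's UMIs (percent, y axis) given by the restricted form named under each subunit, in all proton-pumping cells, in those with at most 2% principal-cell UMIs, and in principal-like and basal-like cells of the young (left) and old mouse (right), with bars of 95% exact binomial intervals. Atp6v1b1, Atp6v1g3 and Atp6v0d2 were used to choose the cells; Atp6v1c2 (50.4% and 36.4%) and Atp6v0a4 (54.8% and 55.1%) were not, and stood at 68.8% and 63% and at 71.4% and 77.1% without the cells over 2% principal-cell UMIs.

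Of 6 tested genes that regulate the pump, 2 were higher and none lower, beside 13.5% higher over all genes tested, and 2 of 6 is too few to describe the list. The 2 were Dmxl1, of the complex that assembles the pump (135 and 117 CPM against 33.2 and 34.6, log2 ratio 1.56 ± 0.13), and Ncoa7, a TLDc protein that binds it (89 and 76.3 CPM against 14.1 and 12.5, 2.31 ± 0.16). Adcy10, the bicarbonate-sensing adenylyl cyclase, had no UMI in either mouse.

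Among 28 genes of acid, base and chloride transport, 22 were tested outside the rule, and 6 were higher, 4 lower and 12 did not pass, beside 13.5% higher and 11.3% lower over all genes tested. The share lower was thus near that of all genes. Bsnd, described next, was tested only through the proton-pumping sums and could not be called lower. Among the higher genes were Clcn5, Bsnd (17.3 and 15.8 CPM against 0.473 and 0.132, 5.63 ± 0.57), the chloride-bicarbonate exchanger Slc26a3 (153 and 93 CPM against 4.54 and 2.02, 4.96 ± 0.19, adjusted p = 5.1e-07) and the membrane carbonic anhydrase Car12 (49.1 and 35.1 CPM against 11 and 8.76, 1.75 ± 0.22). Car2, the cytosolic carbonic anhydrase often used to mark clear cells, stood at 71.7 and 72.8 CPM against 27.1 and 66.4 CPM and did not pass (adjusted p = 0.39).

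The 4 lower genes were Slc4a4, the sodium-bicarbonate cotransporter (22.6 and 48.3 CPM against 62.3 and 75.5, -1.24 ± 0.20), Rhcg, an ammonia channel (67.7 and 98.3 CPM against 144 and 119, -0.95 ± 0.19), Car4 and Cftr. Car4 lost its call without the mouse block (adjusted p = 0.2). Cftr, with 1 and 8 UMIs, lost its call without the block (0.15), with DESeq2 (0.088), under the stricter rule of 8 rule UMIs on 3 genes (0.077) and in cells with at most 1 UMI of other classes' markers (0.092). In the cells with at most 2% principal-cell UMIs Slc4a4 fell to 4.41 and 2.55 CPM and Rhcg to 2.21 and 0 CPM, and Car4 stood at 0 and 2.55 CPM against 11.9 and 15.8 CPM over all cells, so most of their UMIs lay in the cells that held principal-cell RNA. Slc4a4 and Rhcg were called higher than in basal-like cells over all 404 cells and lower without those cells. Slc4a1 and Slc26a4, the anion exchangers that define type A and type B intercalated cells of the kidney, had no UMI in either mouse, which allows up to 3.98 and 2.63 CPM (3 counts).

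**Figure D3:**
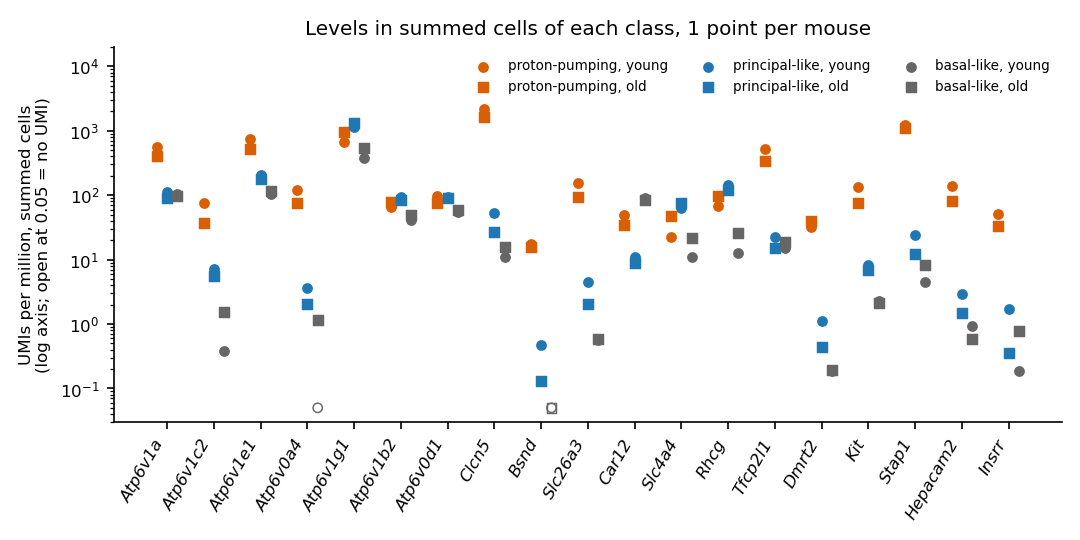
Levels (CPM, log axis) of 19 V-ATPase, transport, regulator and receptor genes in summed proton-pumping, principal-like and basal-like cells, circles for the young and squares for the old mouse. Restricted pump forms, Clcn5, Bsnd, Slc26a3, Car12 and Tfcp2l1 to Insrr are higher in the proton-pumping than in the principal-like sums of both mice (Car12 is lower than in basal-like cells), while Atp6v1g1, Atp6v1b2, Atp6v0d1, Slc4a4 and Rhcg are not.

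Of the regulators listed around Foxi1, 12 were tested outside the rule, and 6 were higher and 1 lower, beside 13.5% and 11.3% over all genes tested. One of the higher genes, Dmrt2, was tested only through the proton-pumping sums. Tfcp2l1, a factor of intercalated cells, stood at 522 and 344 CPM against 22.2 and 15 CPM (log2 ratio 4.21 ± 0.14, adjusted p = 3.5e-07), and Dmrt2, known from type A cells, at 31.9 and 40.4 CPM against 1.13 and 0.44 CPM (5.39 ± 0.46). Kit, a receptor tyrosine kinase, stood at 135 and 76.3 CPM against 8.13 and 7 CPM (3.41 ± 0.19). Ppargc1a and Esrrg, regulators of mitochondrial genes, were at 21.2 and 17.6 CPM and at 11.9 and 12.3 CPM and were higher by 1.79 ± 0.33 and 1.75 ± 0.43, the latter without a call in DESeq2 (adjusted p = 0.097). The Notch ligand Jag1 was higher than in principal-like cells (1.95 ± 0.25) but lower than in basal-like cells (61.1 and 32.5 CPM against 87 and 98.5, -1.26 ± 0.19), a call lost in the cells with at most 2% principal-cell UMIs. The Notch target Hes1 was lower than in principal-like cells (-0.83 ± 0.14). Hmx2, Hmx3, Ascl3 and Foxi2 had no UMI.

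Set beside the related cells of other organs, the profile was mixed. The counts of the 3 lists below stand beside 13.5% higher and 11.3% lower over all genes tested, and each list has few tested genes. Dmrt2 and Insrr were tested only through the proton-pumping sums and could not be called lower, so these counts are a description and carry no test. Of 8 airway ionocyte genes, 5 were tested outside the rule, and Stap1, Tfcp2l1, Hepacam2 (138 and 80.7 CPM against 2.93 and 1.5, 5.32 ± 0.20) and Moxd1 were higher, the last losing its call in several fits (adjusted p = 0.28 with DESeq2), while Cftr, the channel that ionocytes are known for, was at 1.33 and 7.02 CPM against 7.65 and 17.8 CPM. Of 5 genes of kidney type A cells, 4 were tested and all 4 were higher: Kit, Dmrt2, the water channel Aqp6 (2.63 ± 0.41) and Adgrf5 (2.86 ± 0.16). Of 6 genes of type B cells only Insrr was tested, a receptor that senses alkaline pH, and it was higher (50.5 and 33.3 CPM against 1.7 and 0.352, 5.26 ± 0.43). The lists share Kit, Dmrt2 and Tfcp2l1 with the regulators above, so these counts are not independent. Moxd1, counted at only 4 and 6 UMIs, was more abundant in stroma (46.2 and 43.9 CPM) and muscle (79 and 90.4 CPM). Adgrf5, at 173 and 71.1 CPM, was more abundant in endothelial cells (458 and 508 CPM).

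Among 19 receptor and signalling genes 9 of 12 tested were higher than in principal-like cells, beside 13.5% over all genes tested, and none was lower. DESeq2 called 6 of them higher, beside 912 of all genes. Insrr, Avpr1a and P2ry14 were tested only through the proton-pumping sums and could not be called lower. Listed genes nearly absent from both classes, such as Oxgr1 and Agtr1a, were not tested. The filter thus partly fixes these counts, and they carry no test. Avpr1a, the vasopressin receptor, stood at 27.9 and 10.5 CPM against 0.567 and 0.264 CPM (5.10 ± 0.49), P2ry14, a receptor for UDP-sugars, at 5.31 and 8.78 CPM against 0.0945 and 0.132 CPM (5.52 ± 0.69), and Nr3c2, the mineralocorticoid receptor, at 25.2 and 15.8 CPM against 4.25 and 3.7 CPM (1.99 ± 0.34). Avpr1a was as abundant in muscle (31.7 and 13.6 CPM) and stroma (22.3 and 24 CPM), and P2ry14, counted at only 4 and 10 UMIs, was more abundant in immune-class cells (34.6 and 19.7 CPM). In the cells with at most 1 UMI of other classes' markers 6 of these genes were called higher.

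Of 22 tested genes of endocytosis and the lysosome, 8 were higher, 3 lower and 11 did not pass, beside 13.5% and 11.3% over all genes tested, with a median log2 ratio of -0.01. Restricted to the cells with at most 2% principal-cell UMIs, 9 were higher and 7 lower, and without the mouse block 6 were higher and 1 lower. Dab2, an endocytic adaptor (482 and 374 CPM against 198 and 153, 0.96 ± 0.14), Ctsz (2.56 ± 0.20), Scarb2 (1.68 ± 0.19) and Hexa (0.76 ± 0.13) were higher. Against basal-like cells 6 of 21 tested genes of this list were higher and 7 lower, beside 17.5% and 20.2% over all genes tested. Dab2 and Hexa were higher there too, Ctsz did not pass and Scarb2 was lower (-0.95 ± 0.17). Lrp2, the large endocytic receptor megalin, was at 10.6 and 5.27 CPM against 26.7 and 14.6 CPM (-1.72 ± 0.31), with no UMI in the cells with at most 2% principal-cell UMIs, and its partner Cubn had no UMI. Without the mouse block Lrp2 lost its call (adjusted p = 0.066). Of 22 nuclear genes of respiration all were tested, 7 were higher and none lower, with Ndufs1 (0.87 ± 0.19) and Ogdh (0.74 ± 0.12) among them, beside 13.5% higher over all genes tested. DESeq2 called 1 of the 22 higher, beside 912 of all genes, and library size alone 15, beside 3057. Neither Ndufs1 (adjusted p = 0.14) nor Ogdh (0.062) was called by DESeq2. Stress and early-response genes summed to 13720 and 7950 CPM, against 6564 and 4477 CPM in principal-like and 16743 and 10702 CPM in basal-like cells. Against principal-like cells 6 of 10 were called higher, beside 13.5% over all genes tested (1 without the mouse block). Against basal-like cells 7 of 10 were called lower and none higher, beside 20.2% lower over all genes tested. Without the mouse block 2 were lower there, and with library size alone 4 were lower and 1 higher. In the cells with at most 2% principal-cell UMIs 10 of 10 were higher than in principal-like cells, beside 1915 of all genes. Against basal-like cells 2 were then higher and 4 lower, beside 1315 and 1625 of all genes. Their part in other differences was not tested.

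The 8 largest falls among 438 genes that met the same rule were Defb48, Lcn8, Serpina16, Ovch2, Ly6f, 9230104L09Rik, Teddm1a and Lcn9. Lcn8 stood at 478 and 5730 CPM in the proton-pumping cells against 6125 and 17661 CPM (log2 ratio -2.96 ± 0.44, adjusted p = 0.0013), and at 26.5 and 122 CPM in the cells with at most 2% principal-cell UMIs. Of 23 principal-cell genes tested, 19 were lower, beside 11.3% over all genes tested. DESeq2 called 15 of them lower, beside 565 of all genes, and the fit without the mouse block 10, beside 646. Without the mouse block Defb48, Lcn8, 9230104L09Rik, Teddm1a, Ovch2 and Lcn9 lost their call, and with DESeq2 Defb48 and Lcn8 did.

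The comparison with basal-like cells, the other epithelial class, covered 11200 genes, of which 1957 (17.5%) were higher and 2262 (20.2%) lower in the proton-pumping cells, or 2780 and 1636 with library size alone. Slc26a3 (log2 ratio 7.44 ± 0.30), Stap1 (7.29 ± 0.21), Atp6v0a4 (7.10 ± 0.37), Dmrt2 (7.09 ± 0.54) and Clcn5 (6.95 ± 0.20) were higher here too. Of 22 principal-cell genes tested, 20 were called higher than in basal-like cells over all 404 cells (14 with DESeq2 and 7 without the mouse block). Without the cells over 2% principal-cell UMIs none was higher and 21 were lower, a loss that the limit itself brings about, since it was set on these genes. The 4 basal markers, which defined the basal-like class, were lower.

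Iapp was abundant in some proton-pumping cells and missing from others. Among the 168 young and 132 old cells with at most 2% principal-cell UMIs, 59 and 45 had no Iapp UMI, while in 103 and 77 Iapp took at least 0.2% of all UMIs, with medians of 2% and 1.86% and highest values of 7.51% and 7.95%. Only 2 young and 7 old cells with over 1 UMI lay between. The cells with at most 1 Iapp UMI had medians of 2640 and 2412 UMIs, against 2205 and 2813 in the Iapp-high cells. Of the immune-class cells, 1 of 207 and 2 of 130 had an Iapp UMI. The proton-pumping cells gave 83% and 76.9% of all Iapp UMIs in passing cells of their libraries.

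**Figure D4:**
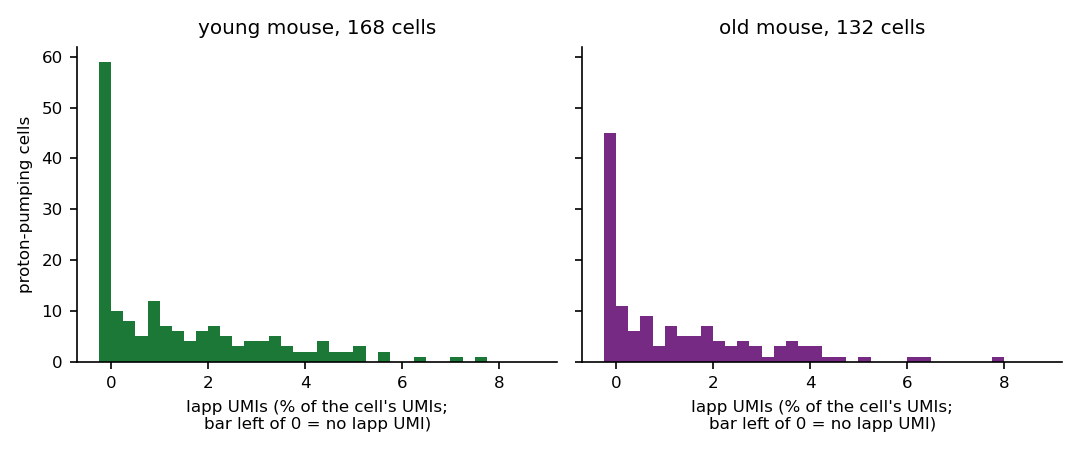
Number of proton-pumping cells (y axis) by the share of their UMIs on Iapp (x axis, percent, bins of 0.25), for cells with at most 2% principal-cell UMIs of the young (left, 168 cells) and old mouse (right, 132 cells). The bar left of 0 holds the 59 young and 45 old cells with no Iapp UMI, and the rest spread up to 7.51% and 7.95%.

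The rule genes, whose levels the choice of cells largely fixes, were present on both sides of this split. Foxi1 stood at 758 and 692 CPM in the Iapp-high cells of the young and old mouse and at 690 and 630 CPM in the Iapp-low cells, Atp6v1g3 at 3112 and 3772 against 3142 and 3236 CPM, and Atp6v0d2 at 341 and 300 against 420 and 494 CPM. Of genes outside the rule, Atp6v1a stood at 720 and 621 CPM in the Iapp-high against 814 and 722 CPM in the Iapp-low cells, and Clcn5 at 2779 and 3034 against 3519 and 2955 CPM. The split was made on Iapp after its values were seen, so the following is a description with no test. Among 422 genes with at least 200 CPM on the higher side in both mice and the same direction in both, 2 were over 2-fold higher in the Iapp-high cells of both mice, Iapp itself and Thbs1, a matrix protein (509 and 500 CPM against 248 and 235), and 2 in the Iapp-low cells. The latter were Fxyd3, a regulator of the sodium pump (728 and 494 CPM against 237 and 179), and Slco1a5, an organic anion transporter (232 and 273 CPM against 84.2 and 91.7).

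To compare detection between classes of unequal depth, each cell was also thinned to 1000 UMIs, which left out 2 young proton-pumping cells and 41 young and 12 old immune-class cells. Clcn5 was then detected in 80.5% and 69.1% of proton-pumping cells, against 0.602% and 0.847% of immune-class, 3.93% and 2.78% of principal-like and 0.966% and 1.27% of basal-like cells (unthinned, 93.4% and 93.2% of proton-pumping and 1.45% and 2.31% of immune-class cells). Iapp was detected in 58.5% and 61.8%, and Slc26a3 in 19.5% and 12.1%. For Gpx5 the thinned share was 24.6% and 56% in proton-pumping cells against 21.1% and 50% in immune-class cells, which should lack the gene.

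Between the old and the young mouse no test is possible, and the text gives ratios with counting intervals. These intervals treat each UMI as independent and cover neither the spread between cells nor that between mice. Over all 404 cells, 41 of 796 genes with at least 200 CPM and 20 UMIs in one mouse (5.15%) differed by over 2-fold, 26 higher and 15 lower in the old mouse. The 6 genes with the highest old-to-young ratio were Teddm2, Adam28, Defb48, Lcn9, Lcn8 and Cst8, 4 of them on the principal-cell list, with log2 ratios from 3.00 to 5.65. Lcn9 stood at 189 CPM in the young and 2536 CPM in the old mouse, and at 1635 and 7311 CPM in their principal-like cells. Among the 6 lowest ratios were Spint4 (1515 CPM in the young mouse, log2 ratio -5.85), Spint5, Crisp1 and Defb23, and the globins Hbb-bs and Hba-a1. Spint4 and Crisp1 are on the principal-cell list. In principal-like cells Crisp1 was lower in the old mouse (6104 and 2368 CPM), but Spint4 (876 and 985), Spint5 (367 and 416) and Defb23 (224 and 391) were not. Without the cells over 2% principal-cell UMIs, only the globins of these genes stayed among the 6 lowest ratios.

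Without the cells over 2% principal-cell UMIs, 11 of 859 genes (1.28%) differed by over 2-fold, 1 higher and 10 lower in the old mouse. The gene over 2-fold higher was Bik (176 CPM in the young and 364 CPM in the old mouse, log2 ratio 1.04, 95% counting interval 0.64 to 1.46). Bik was also higher in the old mouse in principal-like (2.36 and 3.92 CPM), basal-like (4.9 and 7.53), endothelial (61.3 and 108) and immune-class cells (3.46 and 9.83). It was lower in stroma (10.8 and 6.27 CPM) and muscle (17.7 and 5.8). Its rise is therefore not shown to be particular to the proton-pumping cells. Globins and the chemokine Ccl21a came from few cells: Hbb-bs had 665 UMIs in 8 young cells, 344 of them in 1 cell, and Ccl21a 91 UMIs in 5 young cells. Cxcl10 (log2 ratio -1.80, -2.42 to -1.23), Emp1 (-1.61, -2.21 to -1.05) and Klf2 (-1.39) were lower in the old mouse, with UMIs in 32, 49 and 73 young cells. Cxcl10 was also lower in the old mouse in principal-like (33.6 and 13.2 CPM), basal-like (264 and 147 CPM) and stromal cells (1600 and 863 CPM), though not in immune-class cells (183 and 747 CPM). Emp1 was lower in the same 3 classes (52.5 and 22.9, 346 and 156, 589 and 355 CPM) and in immune-class cells (581 and 359 CPM). Klf2 was lower in basal-like cells (435 and 214 CPM) but not in stroma (1147 and 1505 CPM). These falls are therefore not shown to be particular to the proton-pumping cells.

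Followed between the mice were 15 genes outside the rule. In the cells with at most 2% principal-cell UMIs, 7 of them had counting intervals that include no difference and 8 did not. Over all 404 cells Krt7 alone among them had such an interval (-0.13, -0.31 to 0.05). This sorts the genes by counting error alone and is no test between the mice. In the cells with at most 2% principal-cell UMIs Atp6v1a stood at 761 and 677 CPM in the young and old mouse (log2 ratio -0.17, -0.40 to 0.07), Atp6v1e1 at 1021 and 942 CPM (-0.12, -0.32 to 0.08), Clcn5 at 3065 and 3095 CPM (0.01, -0.10 to 0.13) and Tfcp2l1 at 730 and 720 CPM (-0.02, -0.25 to 0.21). Stap1 was higher in the old mouse, at 1773 and 2344 CPM (0.40, 0.26 to 0.54), as were, by less, Krt7 (0.38, 0.18 to 0.58), Cd24a (0.23, 0.13 to 0.33), Krt8 (0.16, 0.07 to 0.26) and Iapp (0.11, 0.06 to 0.16). For Iapp, with no UMI in 59 young and 45 old of these cells, the interval leaves out a wide spread between cells. Kit was at the edge (-0.50, -1.01 to -0.00). Foxi1 (728 and 680 CPM) and Atp6v1g3 (3132 and 3609 CPM) are rule genes, so the choice of cells largely fixes their levels. Edn3 was lower in the old mouse, at 331 and 191 CPM (-0.79, -1.21 to -0.38). Over all 404 cells Foxi1 (-0.51) and Clcn5 (-0.42) were lower in the old mouse. So were Stap1 (-0.16, -0.29 to -0.04), Cd24a (-0.28, -0.37 to -0.19), Krt8 (-0.38, -0.46 to -0.29) and Iapp (-0.29, -0.34 to -0.24). The direction of these last genes thus turns with the limit of 2%. Age, mouse and library cannot be told apart here.

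**Figure D5:**
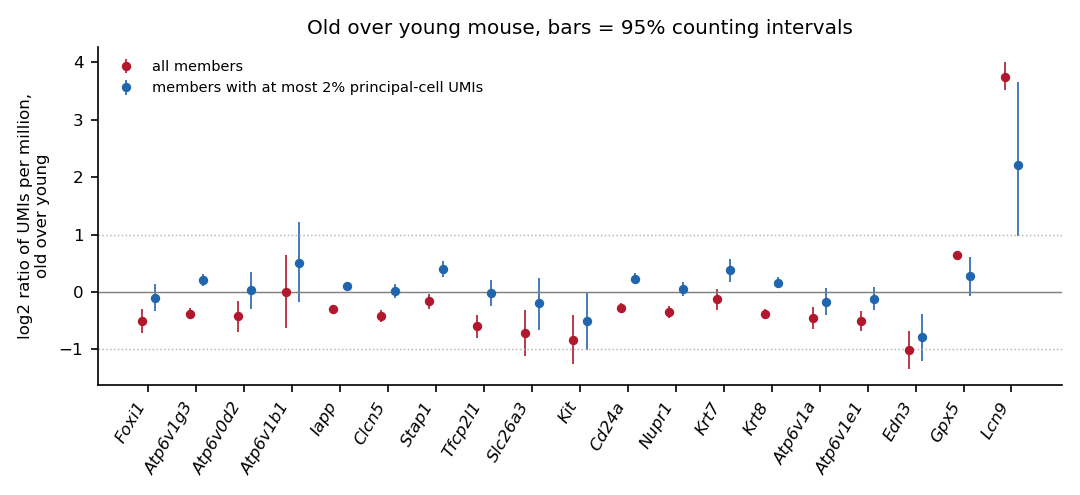
Log2 ratio of CPM, old over young mouse (y axis), for 19 genes over all proton-pumping cells (red) and over those with at most 2% principal-cell UMIs (blue), with 95% counting intervals as bars and dotted lines at 2-fold. In red most pump genes lie below 0 (Foxi1 -0.51) and in blue near it (Foxi1 -0.10), and Lcn9 stands apart at 3.75 and 2.21.

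Cells that met the same rule were rare in the other 21 mice: 63 of 22065 passing cells, or 0.286% (95% exact binomial interval 0.219 to 0.365), in 16 mice, with a median share of 0.31% and a highest of 0.986%. These 63 cells were 19 of the aging pool (C57BL/6J males of several ages, some given rapamycin), 26 of the diet pool and 18 of the single-mouse diet libraries (both FVB/NJ males on different diets). They carried Clcn5 at 527, 569 and 1199 CPM, Stap1 at 178, 229 and 190 CPM, and Tfcp2l1 at 102, 197 and 307 CPM. Their depths were unlike those of the 404 cells, with medians of 56755, 11130 and 1254 UMIs per cell against 3997, 3172 and 10828 in all passing cells of the same libraries, so the rule of 4 UMIs does not choose alike in them. The secretory gene Svs5 stood at 161529, 101622 and 239669 CPM in the 63 cells, but also at 92832, 45978 and 219046 CPM in the cells with a UMI of the immune gene Ptprc, which should lack it, so its level is not read as expression. Gpx5 stood at 3.75, 0 and 0 CPM.

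Iapp was uneven among these 63 cells. The 19 cells of the aging pool had no Iapp UMI in 1066892 UMIs (3 counts would be 2.81 CPM), the 26 cells of the diet pool stood at 2358 CPM and the 18 cells of the single-mouse libraries at 205 CPM. Of the 1352 Iapp UMIs of the diet-pool cells, 1276 lay in the cells of 1 mouse, where 6 of 7 such cells had Iapp, and these 1276 were 99.8% of all Iapp UMIs in that mouse. No test was made between these libraries, and strain, age, diet and library cannot be told apart between them.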

How the data were processed

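The authors deposited filtered UMI counts per gene and cell, made with Cell Ranger 3.1.0 for the single-mouse libraries and 6.0.1 for the pools (per the file headers) on mm10. Intronic counting and strand handling are not given in the sources used here. These counts were used as deposited, and no reads were aligned again. Ages and diet come from the study's animal list. The submitters' processing notes also name Seurat, without a version.

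The cells, gene lists and comparisons were chosen with earlier results of these data known. Sums per mouse and class were tested with edgeR 4.0.16 (TMM, filterByExpr, quasi-likelihood, Benjamini-Hochberg over all genes, the 5 rule genes left out) and, as an alternative, DESeq2 1.42.0, in R 4.3.3. Named genes are the 20 largest rises and 8 largest falls against principal-like cells (adjusted p under 0.05, same direction in both mice, at least 100 CPM in the higher class in both mice), the 6 largest rises and falls between ages, and the listed genes. On simulated counts for the real genes with 200 genes changed by 2 on the log2 scale, 99% were recovered in the principal-like comparison with 6 false calls. In the basal-like comparison 100% were recovered with 10 false calls. The changed genes were drawn from those above the median abundance. The counts used the spread estimated by the fit itself, with no mouse effect and no RNA of other classes. The simulation therefore does not speak for genes with few UMIs. No doublets were removed. Counts of 0 allow up to 3 counts, counting error only. Promoters come from RefSeq (GRCm38.p6), and gene positions from GENCODE vM21 on the same build. Some genes that meet these rules are not reported here.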

Additional observations from a re-analysis of the deposited data

How the results depend on the processing

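Both libraries go against their tissue label, each age has 1 mouse, doublets were not removed, and the tests have 1 residual degree of freedom, so their p-values rest mostly on spread borrowed across genes (prior degrees of freedom 8.14 against principal-like and 49.4 against basal-like cells). The limits of 20% mt- UMIs and 2% principal-cell UMIs were chosen after seeing the data. Against principal-like cells, the 1652 higher genes became 912 with DESeq2, 3057 with library size alone and 1096 in cells with at most 1 UMI of other classes' markers. The 1383 lower genes became 565 with DESeq2, 713 with library size alone, 646 without the mouse block (the pairing of both classes within a mouse), 2305 in cells with at most 2% principal-cell UMIs and 2102 with no low-count filter. Against basal-like cells, the 1957 higher genes became 686 with DESeq2, 1245 in cells with at most 1 UMI of other markers and 1138 without the mouse block, and the 2262 lower genes became 844 with DESeq2 and 1439 without the block. In cells with at most 2% principal-cell UMIs 1315 genes were higher and 1625 lower than in basal-like cells, and 1049 of the higher calls (53.6%) and 1218 of the lower calls (53.8%) over all cells were kept. In the young mouse the share of proton-pumping cells, 2.15%, became 4.3% with at least 1000 genes, 1.84% with at least 200, 0.588% at a limit of 5% mt- UMIs, 4.09% at 20%, 0.982% with at least 8 rule UMIs on 3 genes and 1.83% for cells with at most 2% principal-cell UMIs. In the old mouse 2.27% became 3.39% with at least 1000 genes, 1.02% and 4.28% at 5% and 20% mt- UMIs, 1.13% under the stricter rule and 1.45% for cells with at most 2% principal-cell UMIs. Between ages, 41 genes past 2-fold became 11 in cells with at most 2% principal-cell UMIs. Against basal-like cells the direction turned in those cells for Atp6v0a1 (log2 ratio -0.85), Slc4a4 (-2.38), Rhcg (-4.18) and Npc2 (-0.73). Leaving out each mouse in turn, with no test, gave -0.30 and 0.01 for Atp6v0d1 against principal-like and -0.49 and 0.06 for Ctsd against basal-like cells. The causes were not tested. For the named genes and the listed genes outside the marker and early-response lists, 702 of the other values against principal-like cells kept direction and call and 58 lost the call; against basal-like cells 536 kept both, 89 lost the call and 4 turned.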
